A study of Mus musculus with 6 samples.

Results

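The clustered protocadherin genes lie side by side on mouse chromosome 18, and the peaks described here are those of the 6 deposited lists that overlap, by at least 1 bp, the stretch from 36.9 to 38.05 Mb of that chromosome in build mm9. This window is 1.15 Mb long and was set by position, not by any peak. It held 61 of the 38760 peaks in the 6 lists together. All 61 were peaks of trimethylation of histone H3 at lysine 4 (H3K4me3), 29 in treated and 32 in untreated cells. The lists for trimethylation at lysine 27 (H3K27me3) and for input DNA had no peak in the window in either condition.

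The cells were mouse embryonic fibroblasts (MEFs), primary connective-tissue cells, of the strain C57BL/6, analysed by chromatin immunoprecipitation and sequencing (ChIP-seq). They were either exposed to the chemical combination called 6TCF, whose composition the labels do not give, or left without it as controls, and both were taken on day 6. The growth protocol, the same for every sample, names a medium with 15% serum and 40 ng/ml basic fibroblast growth factor. Each condition gave 1 library per target, which leaves treated and untreated cells without a replicate error to compare them by, and no test was run. The titles and extraction protocol name H3K4me3 and H3K27me3, whereas the antibody field names H3K4me2 and H3K4me1. The names in the titles are used here, and which antibody was used cannot be told from the labels. A listed peak has a position and a width only. The read depth behind it is unknown, and a mark can be present where neither list has a peak.

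Clustered protocadherins are cadherin-like adhesion molecules of the cell surface, best known from neurons, where each cell uses its own small choice of them. In the alpha (Pcdha) and gamma (Pcdhg) clusters each variable exon has a promoter of its own and is spliced to constant exons that all members of the cluster share, while beta (Pcdhb) genes consist of a single exon. H3K4me3 marks active or poised promoters, so a cluster of this design can carry many separate marks in a short distance. H3K27me3 is laid down by Polycomb complexes at silenced developmental genes.

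Names and order of the genes were taken from a RefSeq table of the later build GRCm38.p6, and no position from it was used. It lists 58 genes in these clusters, 14 named Pcdha, 22 named Pcdhb and 22 named Pcdhg, in this order along the chromosome. The nearest protein-coding genes before the alpha cluster are Zmat2, a zinc finger gene, and then Hars2 and Hars, which encode the mitochondrial and cytoplasmic histidyl-tRNA synthetases. Those after the gamma cluster are Diaph1, an actin-nucleating formin, and Hdac3, a histone deacetylase. Slc25a2, a mitochondrial carrier, and Taf7, a subunit of the general transcription factor TFIID, stand between the beta and gamma genes. No peak was assigned to a gene, because positions cannot be carried from one build to the other here. For the same reason the fibroblast label could not be checked against marker genes. The window is wide enough that peaks near its edges may belong to such neighbours. Peaks inside it, those of the run described below included, may belong to genes other than protocadherins, such as Slc25a2 and Taf7. All positions below are on chromosome 18 of mm9.

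H3K4me3 in the window fell into 4 groups of peaks separated by more than 100 kb without any peak, a division made after the peaks were seen. Peaks of both lists together made up 35 separate regions, of which 26 were listed in both conditions, 3 in treated cells only and 6 in untreated cells only. The first group ran from 36902820 to 36962925 and held 5 regions, all in both lists. After 287 kb without a peak came the second, from 37249489 to 37378220, with 4 treated and 3 untreated peaks. A further 259 kb on, the third group consisted of 3 untreated peaks between 37637452 and 37678505. The fourth group began 124 kb later and ran from 37802153 to 38039989, with 20 treated and 21 untreated peaks in 23 regions. Peaks were very unevenly spread. When the window was divided into 10 bins of equal length, the ninth bin held 13 treated and 15 untreated peaks, and 3 bins held none in either list.

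**Figure D1:**
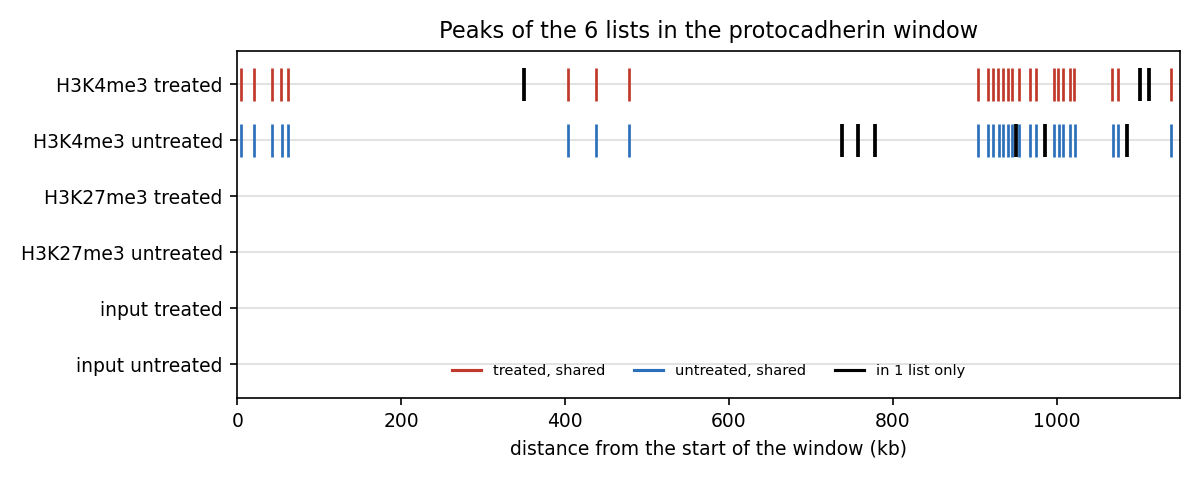
Position of every peak of the 6 lists, drawn at its midpoint, with the distance from the start of the window in kb on the horizontal axis and 1 row per list. Black marks are H3K4me3 peaks in 1 list only (3 treated, 6 untreated), coloured marks are shared peaks, and the H3K27me3 and input rows are empty.

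The fourth group opened with a run of closely set H3K4me3 peaks. In untreated cells 17 consecutive peaks lay between 37802153 and 37922318, each starting no more than 15 kb after the one before. This run of 120 kb is 10.4% of the window's length. The 16 steps from start to start measured 4.55 to 12.8 kb with a median of 6.20 kb, and 11 of them were between 4 and 8 kb. In the whole untreated list the median step was 51.7 kb, and 17.8% of steps were of 15 kb or less. The shortest steps, of 4.79, 4.55 and 4.63 kb, followed each other between the peaks that start at 37839743, 37844529, 37849081 and 37853707. Widths in the run were 779 to 2606 bp with a median of 1298 bp, and 11 of the 17 peaks were between 1000 and 1500 bp wide.

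Treated cells listed 15 of these 17 peaks. Their widths were 639 to 2528 bp with a median of 1180 bp, and the run covered 17925 bp in treated against 22524 bp in untreated cells. The treated list lacked a peak at 37849081 to 37850374 and at 37885202 to 37886142. Without the second of these, the step from 37874039 to 37896319 exceeded 15 kb, and the longest treated run was of 10 peaks, from 37802381 to 37875457.

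Compared with the rest of the untreated list, this was the longest run of H3K4me3 peaks on any chromosome by the 15 kb rule, which was chosen after the peaks were seen. The next longest untreated runs had 12 peaks, on chromosome 13 from 23579978 to 23679161, and 11 peaks, on chromosome 13 from 22065877 to 22144024 and on chromosome 7 from 19854102 to 19947947. Median peak widths in those runs were 2686, 1982 and 1671 bp, all above the 1298 bp of the run in the window. On chromosome 18 the longest other untreated run had 4 peaks. In treated cells 1 run, of 13 peaks on chromosome 7, was longer than the window's longest run of 10, and 8 others were equally long. The rank depended on the rule. At 10 kb the untreated run shrank to 8 peaks and 1 run elsewhere was longer, and at 25 kb it held 17 peaks and 4 runs elsewhere were longer. With starts up to 25 kb apart the treated run had 15 peaks and spanned the same stretch, and 10 treated runs elsewhere were longer. At 20 kb it had 10 peaks and 18 runs elsewhere were longer, and at 10 kb it had 7 and 2 were longer.

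**Figure D2:**
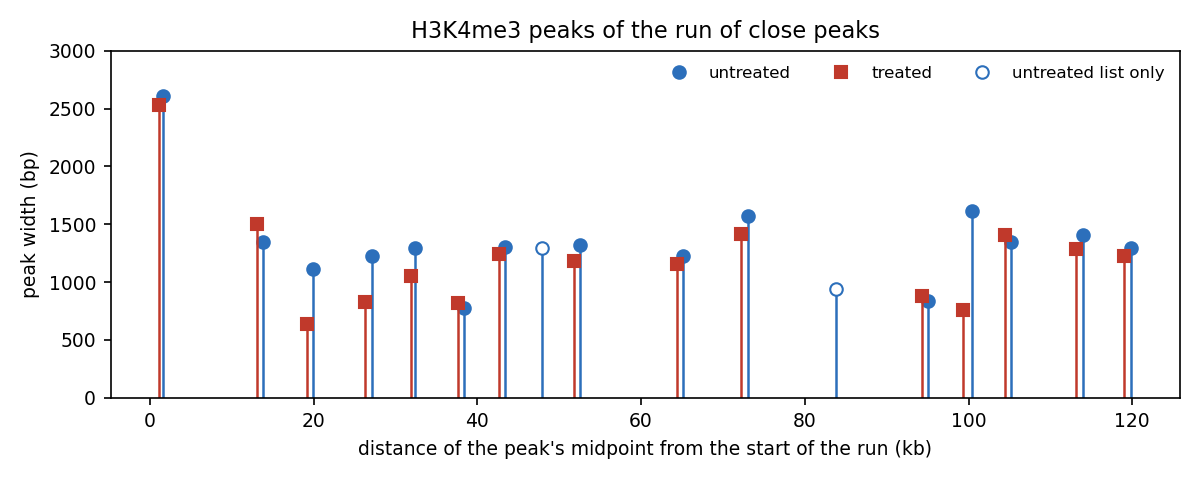
Width in bp (vertical axis, from 0) of each H3K4me3 peak in the run of close peaks, against the distance in kb of its midpoint from the start of the run. Circles are untreated and squares treated peaks, drawn slightly apart to either side of the midpoint; the 2 open circles are in the untreated list only, and 11 of the 15 shared peaks are narrower in treated cells.

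The last shared peaks of the fourth group included the widest of the window. The untreated peak at 37964710 to 37971580 was 6871 bp wide, wider than 99.3% of the untreated list. Its treated counterpart at 37964991 to 37970203 was 5213 bp wide, wider than 97.4% of the treated list. The next peak along measured 2512 bp in untreated and 2261 bp in treated cells, at percentiles 62.7 and 58.5 of the widths in its list. At the far end of the window a narrow peak of 743 bp untreated and 732 bp treated was listed at nearly the same position.

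The first group held wider peaks than the run by the median, 2313 bp treated and 2358 bp untreated, and all were listed in both conditions. Its 5 treated peaks were 1928 to 2685 bp and its 5 untreated peaks 1702 to 2891 bp wide, close to the medians of 2026 and 2115 bp over the whole lists. The peak at 36919049 to 36921202 measured 1702 bp in the untreated and 2154 bp in the treated list, the highest treated to untreated ratio among the shared peaks of the window. In the second group the shared peaks measured 2094, 1397 and 1092 bp in the treated and 1854, 1864 and 1201 bp in the untreated list. The steps between regions there were 34.4 to 53.0 kb, longer than any step in the run. After the widest peak, the 4 next widest of the window in untreated cells measured 2891, 2809, 2606 and 2512 bp, and in treated cells 2685, 2528, 2486 and 2313 bp, and they came from the first and the fourth group.

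Untreated cells had 6 peaks in the window that treated cells lacked, and treated cells had 3 that untreated cells lacked. The 6 untreated-only peaks were 18.8% of the window's 32 untreated peaks (95% exact binomial interval 7.21 to 36.4), against 4.73% of the whole untreated list. The 3 treated-only peaks were 10.3% of 29 (2.19 to 27.4), against 10.2% of the whole treated list, so the treated share was that of the list. Such intervals cover counting error and take each peak as independent of its neighbours. The counts depended on what was taken as a partner and on width. When peaks up to 10 kb apart counted as shared, both lists had 3 peaks of their own. Among peaks of at least 1000 bp, with a partner of any width, 2 of 25 untreated peaks were untreated-only and 0 of 20 treated peaks treated-only. For the 10 kb rule no whole-list share was taken, and shares by width are given below. On the rest of chromosome 18 the shares were 6.74% of 475 untreated and 12.7% of 505 treated peaks.

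Of the 6 untreated-only peaks, 3 formed the third group, alone in a stretch without treated peaks. They lay at 37637452 to 37637999 (548 bp), 37656594 to 37657132 (539 bp) and 37677885 to 37678505 (621 bp). All were among the narrowest of the untreated list, at width percentiles 0.786, 0.693 and 1.90, and the nearest treated peak was 164, 145 and 124 kb away. The other 3 stood among shared peaks of the fourth group. The peak at 37849081 was 1294 bp wide, as wide as its shared neighbours, and the nearest treated peak was 3.29 kb away. The one at 37885202 was 941 bp wide and 9.74 kb from a treated peak, and the one at 37984555 to 37985684 was 1130 bp wide and 8.54 kb away.

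The treated-only peaks were all narrower than 1 kb. The first, at 37249489 to 37250216 (728 bp), opened the second group, 52.5 kb from the nearest untreated peak. The others, at 38001525 to 38002498 (974 bp) and 38012485 to 38013310 (826 bp), lay near the far end of the window, 15.8 and 25.9 kb from an untreated peak.

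Narrow peaks are more often in 1 list only throughout these lists, so the counts were set beside peaks of like width. Of untreated peaks up to 1 kb wide, 4 of 7 in the window were untreated-only, against 23.4% of the list. Of those over 1 and up to 2 kb, 2 of 18 were (11.1%), against 3.72%. Of treated peaks up to 1 kb, 3 of 9 were treated-only (33.3%), against 51.1%, and none of 12 between 1 and 2 kb, against 7.45%. Of peaks over 2 kb, none of the 8 treated and none of the 7 untreated in the window were in 1 list only. Over the whole lists this held for only 0.895% of such treated and 0.656% of such untreated peaks. When the narrowest treated peaks were dropped so that both lists were equally long, 9 untreated-only and 2 treated-only peaks were counted in the window. Such trimming takes narrow treated partners away from untreated peaks, and no whole-list share was set beside these 2 counts.

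Shared peaks in the window were more often narrower than wider in treated cells. Each of the 26 shared regions held 1 treated and 1 untreated peak. Of these pairs 20 (76.9%) were narrower in treated cells and 6 wider, whereas 53.1% of all 16153 pairs of the lists were narrower. On the log2 scale the treated to untreated ratio of widths had a median of -0.10 in the window, with a standard deviation of 0.30 across pairs, a ratio of 0.935. Over all pairs the median was -0.02 with a standard deviation of 0.33, so the shift of the median was small beside the spread across pairs. A few other stretches of chromosome 18 went as far, but most did not. Of the 13 other windows of this length with at least 10 pairs, 2 had a larger share of narrower pairs, up to 9 of 10, and 11 a smaller one. By median ratio 2 of them were lower, 1 equal and 10 higher. With windows laid from a shifted start, all 12 others had a higher median, but the lowest was -0.094 against -0.096 in the protocadherin window. Over all autosomes and chromosome X, 588 other windows had at least 10 pairs. By median ratio 67 of these were lower, 5 equal and 516 higher. Together the 26 treated peaks of the pairs spanned 42280 bp, and the 26 untreated ones 47118 bp.

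Among pairs of like width the window stood further from the lists as a whole. Of pairs whose untreated peak was over 500 and up to 2000 bp wide, 35.1% of 6938 in the whole lists were narrower in treated cells, with a median log2 ratio of 0.09. In the window 13 of 19 such pairs were narrower, with a median of -0.09. When pairs were classed by the geometric mean of both widths, 40.4% of 6991 were narrower in the whole lists and 14 of 20 in the window. With 1 library per condition, a difference between libraries and an effect of the treatment cannot be told apart.

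The largest narrowing was at the peak from 37901386 to 37902998, which measured 1613 bp in untreated and 755 bp in treated cells, a log2 ratio of -1.10. Between the lists its start differed by 50 bp and its end by 808 bp. The peak from 37821159 to 37822269 followed with 1111 bp untreated and 639 bp treated (-0.80), and the one from 37828297 to 37829519 with 1223 and 828 bp (-0.56). All 3 were members of the run. Wider in treated cells were the peak of the first group described above (0.34), the first shared peak of the second group (0.18) and the one at 37814797 to 37816301 (0.16). In the fourth group 14 of 18 pairs were narrower in treated cells, in the second 2 of 3 and in the first 4 of 5. Positions hardly differed: midpoints of paired peaks were a median of 67.5 bp apart, and 24 of the 26 were within 200 bp.

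**Figure D3:**
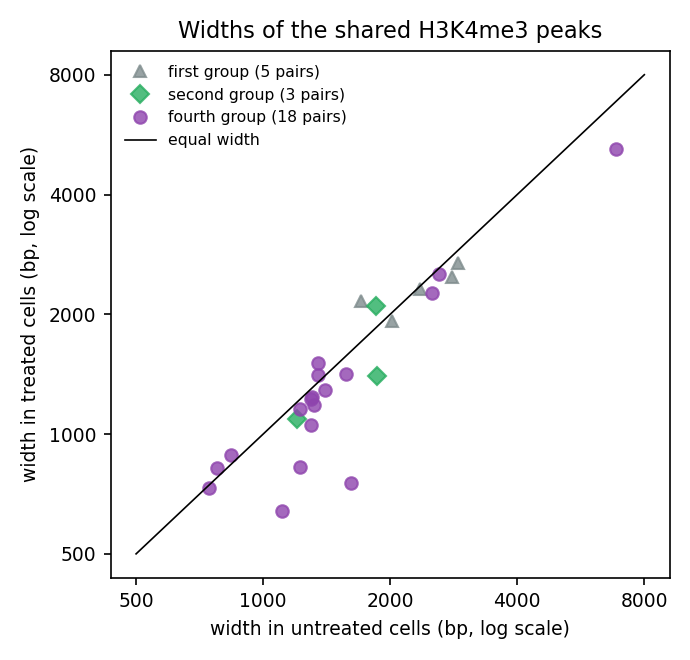
Width of each of the 26 shared H3K4me3 peaks in untreated (horizontal) and treated cells (vertical), in bp on log scales, with symbols for the group of peaks and a line at equal width. Of the points 20 lie below the line, and the 3 farthest below it are peaks of the fourth group.

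Beside other stretches of chromosome 18, the protocadherin window was rich in H3K4me3 peaks, and its peaks were narrow. The chromosome was divided into windows of the same 1.15 Mb, laid end to end from the protocadherin window, which gave 77 others. They held a median of 5 peaks in each list. No H3K4me3 peak was listed in 9 of them in treated and in 10 in untreated cells. Those at 100001 to 1250000 and 1250001 to 2400000 had no peak in any list. Of the 77, 1 had more peaks than the protocadherin window. It was the window just before, with 36 treated and 35 untreated peaks, and the window just after came next with 22 and 21. By bases covered, 3 windows exceeded it in treated cells (44808 bp, 3.90% of the window) and 2 in untreated cells (52191 bp, 4.54%).

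The median treated peak of the window was 1241 bp wide, against 2088 bp over the rest of the chromosome, and the median untreated peak 1314 bp, against 2193 bp. Among windows with at least 10 peaks, 18 of 20 had wider treated and 17 of 18 wider untreated peaks. The neighbouring windows had medians of 1781.5 and 1595.5 bp in treated cells and 1859 and 1910 bp in untreated cells. Peaks were thus wider in both neighbours than in the protocadherin window.

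The number of untreated-only peaks was higher in the protocadherin window than in any of the 77 others, which had at most 3 but also held fewer peaks in most cases. As a share of a window's untreated peaks, 18.8% was exceeded in 9 of the 67 other windows with any untreated peak, all with under 10 peaks. It was exceeded in none of the 18 with at least 10 peaks, of which the highest had 2 of 11 (18.2%), so by share the window was not set apart. Treated-only peaks were more numerous in 3 other windows and equal in 4. The window just before it had no untreated-only peak and 1 treated-only peak, and the window just after it none and 2. Over all autosomes and chromosome X, 1 of 2279 windows had more untreated-only peaks than the protocadherin window, and 92 had more treated-only peaks. These ranks are of counts, not shares, and few windows held as many peaks: 45 had more untreated and 70 more treated peaks. Windows are not replicates, so these ranks describe the lists.

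**Figure D4:**
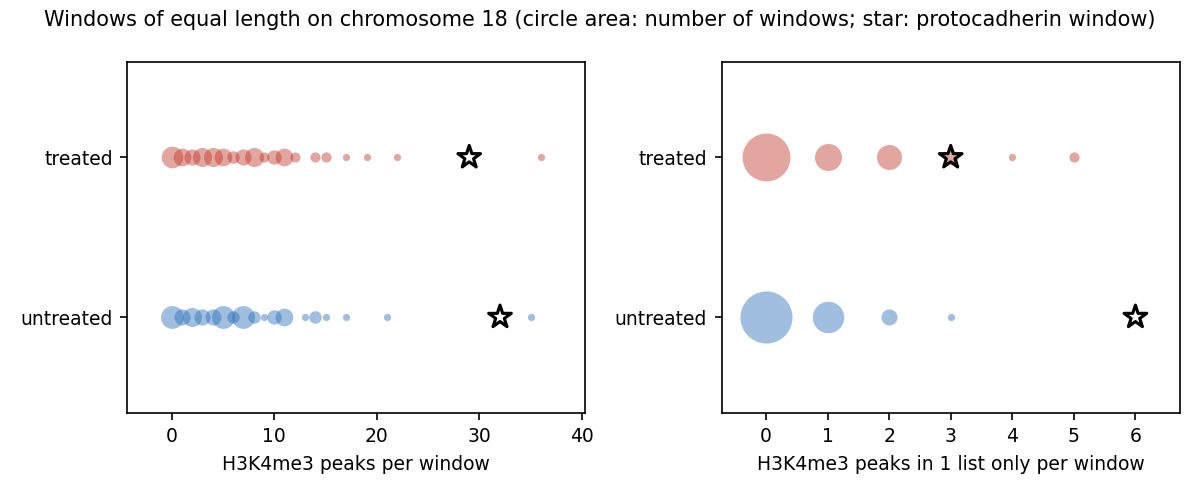
H3K4me3 peaks per window of 1.15 Mb on chromosome 18 (left) and peaks in 1 list only per window (right), with circle area giving the number of windows and the star the protocadherin window. The star stands at 29 treated and 32 untreated peaks, below 1 other window in each, and at 6 untreated-only peaks, above all 77 others.

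No H3K27me3 peak was listed in the window in either condition, which was the usual state of windows on this chromosome. Of the 77 others, 61 had no treated and 56 no untreated H3K27me3 peak, since chromosome 18 held only 23 and 35 in all. The nearest was 0.458 Mb before the window, an untreated peak of 183 bp at 36441892 to 36442074 that overlapped an H3K4me3 peak. In treated cells the nearest lay 2.42 Mb after it, at 40467704 to 40467944, where an untreated H3K27me3 peak and both input lists also had a peak. None of the window's H3K4me3 peaks overlapped a peak of either input list, and the nearest input peak was 1.12 Mb before the window. No region of the protocadherin window therefore carried listed peaks of both marks. Over all chromosomes the H3K27me3 lists held 821 treated and 1242 untreated peaks, against 604 and 740 for input. Their median widths were 149 and 211.5 bp, against 146 and 142 bp for input. Whether they detect more than input does was not tested. Lists this short cannot show whether the window had less H3K27me3 than the rest of the chromosome.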

How the data were processed

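Each of the 6 libraries has 1 deposited peak list without a header, with chromosome, start, end and a constant sign. Its columns hold positions only, and no deposited height, score or read number was used. Build mm9 and the tools Bowtie2 2.2.5, MACS 1.4.3, CASAVA 1.7 and HOMER come from the submitters' processing notes, which state neither role nor order. Threshold, control and caller per list were not given in the sources used here. Starts were read as counted from 0 and are printed counted from 1. Chromatin was sheared to an average of 600 bp, per the labels' protocols.

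Overlaps and widths were computed with numpy 2.4.6 and scipy 1.17.1 (Python 3.11.15) and tested on simulated data. Only the whole-list numbers of peaks in 1 list only were checked against bedtools 2.31.1. Figures used matplotlib 3.10.9. Peaks sharing at least 1 bp count as shared, and a pair is 1 treated and 1 untreated peak with no further overlap in either list. Named peaks are the 5 widest per list, up to 5 in 1 list only per direction (here also the sixth, chosen after its values were seen) and the 3 most changed pairs per direction, plus edges of groups and runs. The peaks at the shortest steps, the shared peaks of the second group and the last peak of the window were named after their values were seen. The window, lists and rules were chosen with earlier results of these data known. Groups, runs, classes of width and their alternatives were chosen after seeing the peaks.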

Additional observations from a re-analysis of the deposited data

How the results depend on the processing

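Of 72 values under alternative settings, 64 stayed near the reported ones (counts within 1.5 times) and 8 moved. No direction reversed, but most values are counts or percentages, which have no direction. Some settings could not move a value: no H3K4me3 peak of the window overlaps input, so leaving such peaks out changes nothing there. With the window 100 kb shorter at each end, 19 treated peaks were left. With peaks of at least 1000 bp kept in both lists, or with partners of any width allowed, 0 treated-only peaks were left. The untreated-only count was then 5 and 2, since the stricter lists drop narrow treated partners. No whole-list share was set beside the counts from the stricter lists, so they cannot be compared with the lists as a whole. When peaks up to 10 kb apart counted as shared, 3 untreated-only peaks were left, again without a whole-list share. With starts up to 10 kb apart the untreated run had 8 peaks. With windows laid from a shifted start, 100% of other windows on chromosome 18 had fewer peaks than the protocadherin window in both lists, against 98.7%. Its neighbour is then divided, and windows that overlap the protocadherin window are left out. All 24 values for H3K27me3 stayed at 0, and only the longer window could have raised any of them. Without the first group of peaks the median log2 width ratio was -0.13. No paired analysis was possible because each group has 1 library and the labels carry no replicate number. Depth is unknown, so peaks missing from 1 list through depth or threshold and peaks lost from chromatin cannot be told apart.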
